A study of Mus musculus with 24 samples.

Results

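The genes described are 10 members of the Notch pathway in differentiating mouse cells. They comprise the ligand genes Dll1, Dll3 and Jag1, the receptor genes Notch1, Notch2 and Notch3, and 4 genes of the Hes and Hey family of transcriptional repressors, Hes1, Hes3, Hes5 and Hey1. They were taken by symbol from an expression table that listed 22667 genes, each member had 1 row, and all 10 passed the filter on low counts that left 16627 genes for testing.

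RNA sequencing had been carried out on WT cells and on slow/slow cells, which carry the R749H substitution on both alleles of Polr2a, which encodes the largest, catalytic subunit of the polymerase that makes mRNA, and thus a polymerase described in the study as elongating slowly. For each genotype, 3 replicates were sampled as embryonic stem cells (ESCs) in medium with LIF and kinase inhibitors, as neural progenitor cells (NPCs) on day 7 of differentiation, as PSA-NCAM+ cells purified on day 10 with beads against polysialylated NCAM, and as neurons, which had been replated on day 7 and grown for another 14 days with ascorbic acid and cAMP. These 8 groups make 24 samples, and the methods state that the replicates were independent differentiation experiments. Cultures for NPCs and PSA-NCAM+ cells had been started at 10000 WT and 30000 slow/slow cells per square centimetre, and the number of slow/slow lines sequenced was not given in the sources used here. Genotype and line therefore cannot be told apart at any stage. In NPCs and PSA-NCAM+ cells plating density cannot be told apart from them either. The same may hold for neurons, which were replated from day 7 cultures.

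Notch signalling passes between neighbouring cells. Ligands of the Delta-like and Jagged families on one cell bind Notch receptors on the next, the receptor is cut by proteases, and its intracellular part enters the nucleus, joins the DNA-binding protein RBPJ and switches on genes such as Hes1 and Hes5. Hes and Hey proteins repress proneural genes. In the developing nervous system this circuit holds progenitors back from becoming neurons, while cells that begin to differentiate raise their own Delta-like ligands. Dll3 is unusual among the ligands in that it acts mainly within the cell that makes it, as an inhibitor of Notch.

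RefSeq promoter entries of GRCm38.p6 were found for 7 of the 10 members, in 8 windows, since Dll1 had 2. The 250 bases upstream of the start of Hes5 and of Dll1 are shown because one is a target of the receptor complex and the other a ligand, and both genes were higher in slow/slow cells at 3 of the 4 stages. Capitals mark the letters TGGGAA, the core recognised by RBPJ, or their reverse complement. The Hes5 stretch is chr4:154960673-154960922 on the plus strand, and the Dll1 stretch is chr17:15376933-15377182 on the minus strand, the entry farther upstream of the 2.
Hes5: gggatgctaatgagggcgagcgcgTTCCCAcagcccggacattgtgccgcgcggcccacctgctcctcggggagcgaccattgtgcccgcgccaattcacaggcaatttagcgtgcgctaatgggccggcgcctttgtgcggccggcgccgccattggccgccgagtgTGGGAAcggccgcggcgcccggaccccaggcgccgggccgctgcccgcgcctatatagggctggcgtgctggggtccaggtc
Dll1: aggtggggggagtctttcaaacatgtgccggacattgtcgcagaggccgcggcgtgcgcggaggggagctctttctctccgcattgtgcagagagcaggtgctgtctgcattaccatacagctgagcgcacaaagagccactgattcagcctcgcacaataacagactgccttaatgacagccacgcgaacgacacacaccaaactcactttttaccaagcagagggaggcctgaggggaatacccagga
The Hes5 stretch held TGGGAA on the strand of the gene from 82 to 77 bases before the start, and its reverse complement from 226 to 221 bases before it. None of the other 7 windows held this motif on either strand, whereas 21.6% of all 32851 promoter stretches of the same length did. The letters CACNAG, the N-box bound by Hes proteins, were present on at least 1 strand in 3 members, Notch1, Notch2 and Notch3, against 36.7% of all stretches. Matches of the motifs did not overlap. Absence of these letters from a window says nothing of the factor.

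Total counts ranged from 32974432 to 104466886 per library, with a median of 61360700. Expression is given as CPM, counts scaled by the size of the library after TMM normalisation. P-values and SEs rest on the spread between samples of a group, estimated in 1 model over all 8 groups. They do not rest on the 3 samples of the compared groups alone. Marker genes followed the stage labels in part. Summed over 5 pluripotency genes, levels ran from 5013 to 5734 CPM in ESCs and from 75.5 to 127 CPM in neurons, and 6 neuronal genes summed to between 2739 and 3740 CPM in neurons and to at most 520.3 CPM at any other stage. Other sums went against the labels. The 5 progenitor markers other than Hes5 summed to 442 to 472 CPM in WT NPCs, below the 628 to 679.6 CPM of WT ESCs, and were highest in neurons (1862 to 2150 CPM in WT), and the neuronal genes summed to 69.6 to 95.9 CPM in WT PSA-NCAM+ cells, below the 206 to 251 CPM of WT ESCs. A sum is weighted toward the most abundant genes, and single genes were split. From WT ESCs to WT NPCs 2 of the 5 progenitor markers were higher and 2 lower at an FDR under 0.05 in edgeR's test. Their median log2 change was 0.11. Of the 6 neuronal genes 2 were higher and 2 lower in that comparison. Among all tested genes 34% were higher and 31.6% lower. At the PSA-NCAM+ stage replicate 1 stood apart in both genotypes. Its root mean square distance from the other replicates of its group was 0.965 on the log2 scale in slow/slow and 0.682 in WT cells, against 0.233 to 0.59 for the other 22 libraries. WT and slow/slow samples of one replicate number deviated together at this stage (correlations of 0.54, 0.455 and 0.401) and not at the others, so values from a fit with a replicate block for the PSA-NCAM+ samples are given where they changed a call. Slow/slow NPCs and slow/slow PSA-NCAM+ cells of one number also correlated, more weakly (0.238, 0.149 and 0.0939). In a bulk sample, fewer cells of a type and less RNA per cell cannot be told apart.

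Of the 10 members, between 2 and 6 were called higher and between 0 and 2 lower in slow/slow cells, depending on the stage. A gene was called when its Benjamini-Hochberg FDR in edgeR's quasi-likelihood test was under 0.05. In ESCs 2 members were higher and 1 was lower in slow/slow cells, where 18.5% of all tested genes were called higher and 21.9% lower. In NPCs 4 were higher and 1 lower, against 29.3% and 27.4% of all genes. In PSA-NCAM+ cells 6 were higher and 0 lower, against 28.6% and 28.1%. That stage fitted alone called 3641 of all genes, against 9424. Over the alternative fits, FDRs of these 6 reached 0.0024 for Hes5, 0.00988 for Hes3 and 0.0101 for Dll1. They reached 0.0173 for Dll3, 0.035 for Jag1 and 0.0636 for Notch3. In neurons 5 were higher and 2 lower, against 23.4% and 28.4%. The median log2 change of the 10 members was -0.04, 0.58, 1.03 and 0.48 at the 4 stages in the order given, and that of all tested genes -0.02, 0.01, -0.01 and -0.06. The counts varied with the fit. Without replicate 1 of both genotypes at the PSA-NCAM+ stage, ESCs had 2 members higher and 2 lower, NPCs 7 and 2, PSA-NCAM+ cells 7 and 0, and neurons 6 and 2, and in NPCs fitted alone 9 of the 10 members were called. Calls over all genes rose too. The fit without replicate 1 called 11391 genes in PSA-NCAM+ cells, against 9424, and its totals at other stages are not given. NPCs fitted alone called 11600 genes, against 9423. Under upper-quartile scaling of the neurons, 59.2% of all called genes were higher rather than 45.2%, with the median of all genes moving from -0.06 to 0.09 on the log2 scale, and Notch3 was then also called higher (0.44 on the log2 scale, FDR 0.0242).

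**Figure D1:**
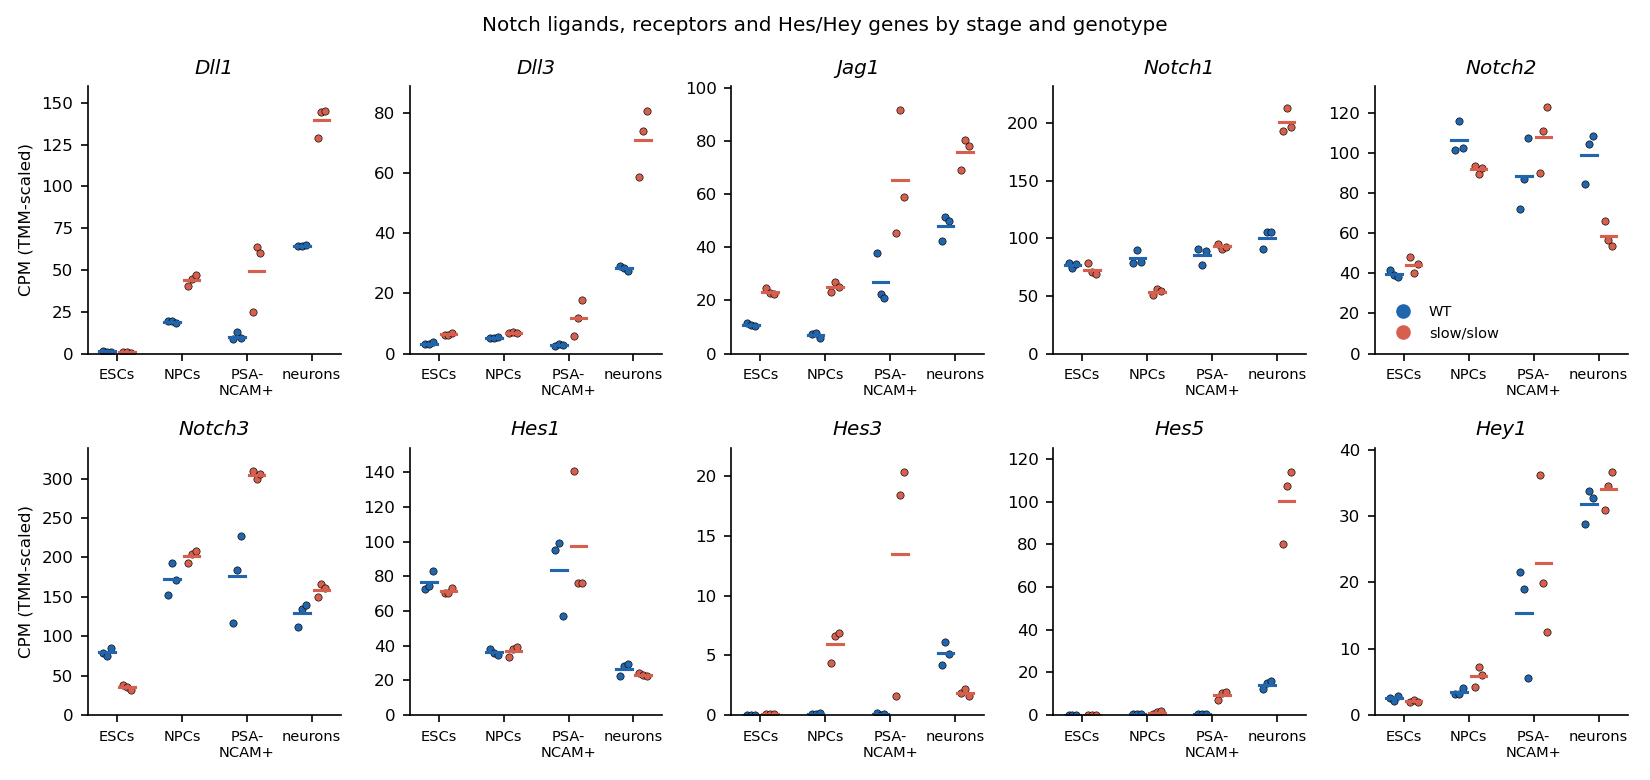
TMM-scaled CPM (linear axes from 0, a different range in each panel) of the 10 members in each sample at the 4 stages, WT in blue and slow/slow in red. Points are samples and bars are means of 3. The slow/slow points of Dll1 and Hes5 lie above the WT points in NPCs, PSA-NCAM+ cells and neurons, while those of Hes1 overlap them at every stage.

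Among the ligands, Jag1 was higher in slow/slow cells at all 4 stages and Dll1 at every stage after ESCs. Dll1 (chr17:15367354-15376872, minus strand, GRCm38) encodes a Delta-like ligand that activates Notch on neighbouring cells. It was low in ESCs, at 1.66, 1.03 and 1.19 CPM in the WT and 0.769, 0.921 and 0.526 CPM in the slow/slow samples. In NPCs it stood at 19.2, 19.3 and 18.5 CPM in WT cells and at 40.5, 44.3 and 46.9 CPM in slow/slow cells. In neurons the WT values were 64.1, 64.5 and 65.0 CPM and the slow/slow values 129, 145 and 145 CPM. At both of these stages the lowest slow/slow sample was well above the highest WT sample. The log2 change was 1.21 ± 0.23 (SE) in NPCs (FDR 1.92e-04) and 1.11 ± 0.23 in neurons (FDR 3.91e-04), and -0.80 ± 0.34 in ESCs (FDR 0.0651), where DESeq2 gave an FDR of 0.0195 and ESCs fitted alone 0.00909. In PSA-NCAM+ cells the values were 8.75, 12.7 and 9.02 CPM in the WT samples and 24.9, 63.5 and 60.2 CPM in the slow/slow samples, a log2 change of 2.29 ± 0.24 (FDR 1.47e-07). The lowest of these, replicate 1 of slow/slow cells, was still above every WT sample. Dll1 shares 1873 bases with a noncoding gene on the other strand, and since the strand setting of the counting was not stated its reads may include that gene's.

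Dll3 (chr7:28293553-28302238, minus strand), the intracellular inhibitor, was at 3.02, 3.01 and 3.81 CPM in WT and at 6.20, 6.22 and 6.78 CPM in slow/slow ESCs. In PSA-NCAM+ cells it was at 2.46, 3.13 and 2.85 CPM in WT and at 5.80, 11.7 and 17.8 CPM in slow/slow samples, whose values spread over a wider range than those of the WT but did not reach down to them. In neurons it was at 29.2, 28.5 and 27.6 CPM in WT and at 58.6, 74.0 and 80.9 CPM in slow/slow cells. It was therefore higher at these 3 stages, with log2 changes of 0.96 ± 0.25 (FDR 0.00398), 2.07 ± 0.25 (FDR 7.61e-07) and 1.32 ± 0.23 (FDR 8.03e-05). In NPCs the WT samples lay between 5.14 and 5.37 CPM and the slow/slow samples between 6.78 and 7.21 CPM, which did not overlap but did not pass the test (0.40 ± 0.24, FDR 0.157) unless NPCs were fitted alone (FDR 0.00145).

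Jag1 (chr2:137081456-137116644, minus strand) encodes a Jagged ligand. In ESCs it was measured at 11.4, 10.7 and 10.3 CPM in WT and at 24.8, 22.7 and 22.5 CPM in slow/slow cells, and in NPCs at 7.47, 7.85 and 5.92 CPM in WT and at 23.3, 27.0 and 25.1 CPM in slow/slow cells. The genotypes were far apart in both, and the slow/slow ESCs already exceeded the WT NPCs. The neurons held 42.3, 51.4 and 49.7 CPM in WT and 69.1, 80.1 and 78.1 CPM in slow/slow samples. Log2 changes were 1.11 ± 0.21 in ESCs (FDR 3.49e-04), 1.83 ± 0.22 in NPCs (FDR 9.49e-07) and 0.66 ± 0.21 in neurons (FDR 0.0109). In neurons the call was lost without WT replicate 1 (FDR 0.0516). In PSA-NCAM+ cells WT values of 37.8, 22.3 and 20.8 CPM stood against 45.4, 91.5 and 58.8 CPM in slow/slow cells (1.27 ± 0.21, FDR 3.61e-05). Replicate 1 was the highest of the WT and the lowest of the slow/slow samples, and without it in both genotypes the log2 change was 1.80.

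The receptors changed in different directions at different stages. Notch1 (chr2:26457903-26516663, minus strand) was lower in slow/slow NPCs and higher in slow/slow neurons. WT NPCs held 79.0, 90.1 and 79.3 CPM and slow/slow NPCs 50.8, 56.1 and 54.2 CPM. WT neurons held 90.9, 106 and 105 CPM and slow/slow neurons 193, 213 and 197 CPM. Groups did not overlap at either stage, and the log2 changes were -0.62 ± 0.08 (FDR 1.96e-06) and 1.00 ± 0.08 (FDR 4e-09). In ESCs the samples of both genotypes lay between 69.2 and 78.9 CPM (-0.08 ± 0.08, FDR 0.443). In PSA-NCAM+ cells WT samples were at 91.0, 77.1 and 88.7 CPM and slow/slow samples at 95.04, 91.2 and 92.9 CPM, which did not pass the test (0.12 ± 0.08, FDR 0.201).

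Notch2 (chr3:98013527-98150361, plus strand) was lower in slow/slow neurons, at 66.0, 56.8 and 53.3 CPM, than in WT neurons, at 84.3, 104 and 109 CPM (-0.75 ± 0.13, FDR 8.57e-05). It was the member receptor that fell where Notch1 rose. In ESCs the WT values were 41.7, 38.9 and 38.1 CPM and the slow/slow values 48.0, 39.9 and 44.8 CPM (0.16 ± 0.13, FDR 0.362), and in NPCs 102, 116 and 102 CPM in WT stood against 93.6, 89.3 and 92.5 CPM in slow/slow cells (-0.22 ± 0.13, FDR 0.172). Neither passed the test, although NPCs fitted alone gave an FDR of 0.00154. In PSA-NCAM+ cells the WT samples held 71.9, 86.8 and 107 CPM and the slow/slow samples 90.1, 111.1 and 122.7 CPM. The groups overlapped, but each slow/slow sample was above the WT sample of its replicate number, by 1.14 to 1.28 times. The log2 change of 0.28 ± 0.13 did not pass the test (FDR 0.0725) without the replicate block and did with it (0.29, FDR 0.00768) or without replicate 1 (FDR 0.0404).

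Notch3 (chr17:32120820-32166852, minus strand) was lower in slow/slow ESCs and higher in slow/slow PSA-NCAM+ cells. In ESCs the WT samples were at 78.1, 74.5 and 85.4 CPM and the slow/slow samples at 38.1, 36.1 and 32.1 CPM, a clear separation with a log2 change of -1.16 ± 0.16 (FDR 6.91e-06). In PSA-NCAM+ cells the WT samples were at 117, 183 and 228 CPM, and the slow/slow samples at 309, 299 and 306 CPM. The WT samples differed among themselves by more than the slow/slow samples did, and all 3 lay below them (0.79 ± 0.15, FDR 2.08e-04). Fitted on this stage alone the FDR was 0.0636, and without replicate 1 the log2 change was 0.56. In NPCs, WT values of 152, 193 and 171 CPM lay against 193, 205 and 208 CPM in slow/slow cells (0.23 ± 0.15, FDR 0.205), and in neurons 112, 135 and 140.1 CPM against 149, 166 and 161 CPM (0.30 ± 0.15, FDR 0.107). Neither difference passed the test, and each did when its stage was fitted alone (FDR 0.016 and 0.00105). An antisense gene shares 21024 bases with Notch3, and noncoding genes also overlap Notch1 and Notch2, so unstranded counts could mix their reads.

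Of the 4 repressor genes, Hes5 and Hes3 differed most between genotypes, and Hes1 and Hey1 were not called at any stage. Hes5 (chr4:154960923-154962371, plus strand), a direct Notch target in neural progenitors whose promoter is shown above, was at 0.270, 0.438 and 0.375 CPM in WT and at 0.647, 1.24 and 1.65 CPM in slow/slow NPCs. In PSA-NCAM+ cells it was at 0.336, 0.409 and 0.424 CPM in WT and at 7.19, 10.5 and 11.02 CPM in slow/slow cells. In neurons it was at 12.1, 14.9 and 15.9 CPM in WT and at 80.2, 107 and 114 CPM in slow/slow cells. The groups were separated at all 3 stages. Log2 changes were 1.63 ± 0.31 in NPCs (FDR 1.61e-04), 4.63 ± 0.28 in PSA-NCAM+ cells (FDR 1.32e-10) and 2.81 ± 0.23 in neurons (FDR 6.87e-09), or 3.09, 24.8 and 7.02 times the WT level. In ESCs both genotypes had 2 to 8 counts per library, and no fold is given. A noncoding gene on the other strand shares 756 bases with Hes5.

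Hes3 (chr4:152285972-152291662, minus strand) encodes a repressor of the same family found in early neuroepithelium. It was higher in slow/slow NPCs and PSA-NCAM+ cells and lower in slow/slow neurons. WT NPCs held 4, 7 and 11 counts, or 0.0832, 0.106 and 0.165 CPM, and slow/slow NPCs 334, 278 and 279 counts, or 4.32, 6.63 and 6.88 CPM (5.60 ± 0.71, FDR 2.05e-06). WT PSA-NCAM+ cells held 14, 1 and 5 counts, or 0.162, 0.0195 and 0.0814 CPM, and slow/slow PSA-NCAM+ cells 1.63, 18.4 and 20.3 CPM (7.10 ± 0.74, FDR 1.38e-07). Replicate 1 was the highest WT and by far the lowest slow/slow sample, and even there the slow/slow level was 10.1 times the WT level. In neurons the order was opposite, with WT values of 4.22, 6.13 and 5.12 CPM and slow/slow values of 1.88, 2.15 and 1.59 CPM (-1.45 ± 0.53, FDR 0.0284). This call was lost in 5 of the 6 fits that left out 1 neuron sample, with FDRs of up to 0.0807. In ESCs the libraries had 0 to 4 counts, and no fold is given.

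Hes1 (chr16:30064384-30067796, plus strand), a broadly used Notch target that is also expressed in pluripotent cells, had overlapping values at every stage. In ESCs it ran from 72.7 to 82.8 CPM in WT and from 70.3 to 73.2 CPM in slow/slow cells, and in NPCs from 34.7 to 38.3 CPM and from 33.4 to 39.5 CPM. In neurons the ranges were 22.7 to 29.4 CPM and 22.7 to 24.2 CPM. Log2 changes were -0.10 ± 0.20, 0.03 ± 0.20 and -0.20 ± 0.20 (FDR 0.713, 0.925 and 0.414). In PSA-NCAM+ cells the WT samples held 95.3, 99.0 and 57.3 CPM and the slow/slow samples 141, 76.1 and 76.1 CPM (0.22 ± 0.19, FDR 0.348). Pairs of the same replicate number went in both directions, with 2 of 3 higher in slow/slow cells.

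Hey1 (chr3:8663359-8667256, minus strand), a repressor of the related Hey branch, was not called at any stage. It ran from 2.09 to 2.80 CPM in WT and from 1.97 to 2.29 CPM in slow/slow ESCs, and from 28.7 to 33.8 CPM and 30.9 to 36.7 CPM in neurons (-0.28 ± 0.40 and 0.10 ± 0.35, FDR 0.623 and 0.834). NPCs held 3.12, 3.22 and 4.02 CPM in WT and 4.15, 7.26 and 6.09 CPM in slow/slow cells, which did not overlap but did not pass the test (0.75 ± 0.38, FDR 0.0971) unless NPCs were fitted alone (FDR 0.00271). PSA-NCAM+ cells held 21.6, 19.1 and 5.56 CPM in WT and 36.2, 19.8 and 12.5 CPM in slow/slow cells (0.56 ± 0.36, FDR 0.185). Here each slow/slow sample was above the WT sample of its number, by 1.04 to 2.25 times, and with the replicate block the FDR was 0.00272.

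**Figure D2:**
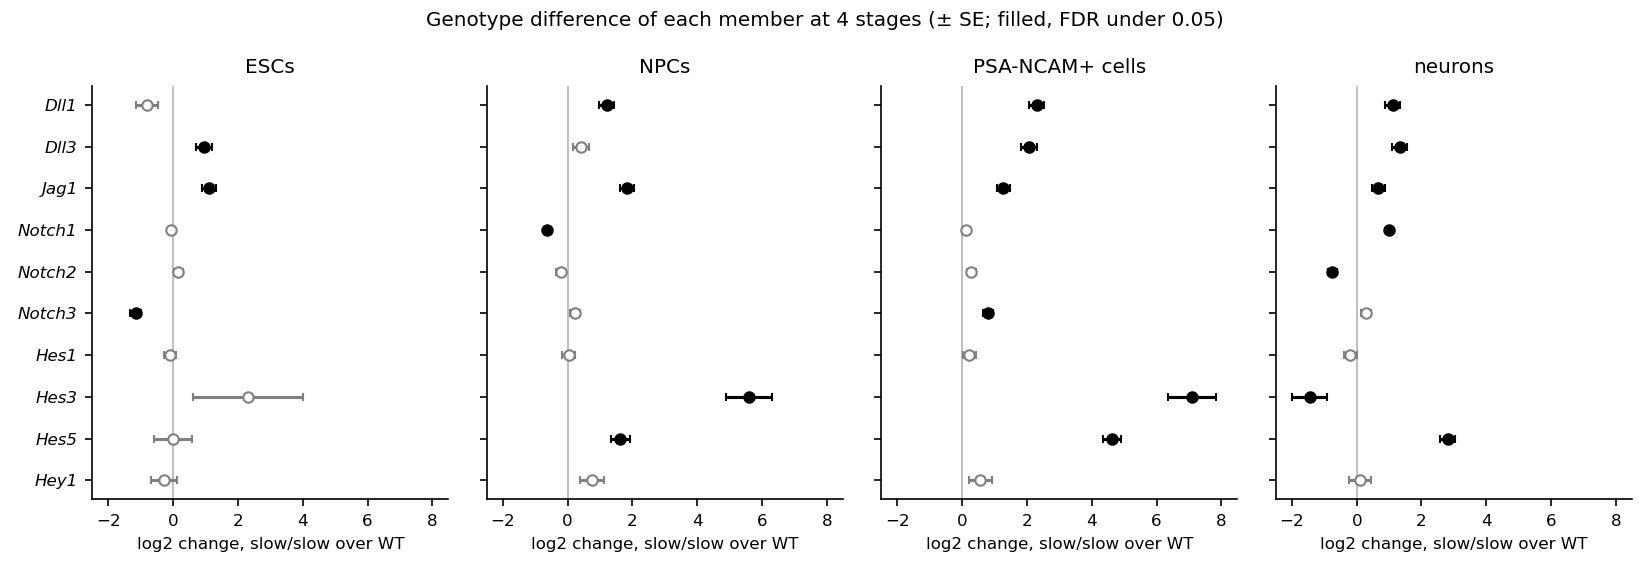
Log2 change of slow/slow over WT cells for each member at the 4 stages, with bars of 1 SE. Filled points have an FDR under 0.05 in edgeR's quasi-likelihood test. Jag1 is filled at all 4 stages, Hes1 and Hey1 at none, and Hes3 changes sign between PSA-NCAM+ cells and neurons. The open Hes3 and Hes5 points in ESCs rest on at most 8 counts per library.

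The PSA-NCAM+ samples can be read pair by pair. For 9 of the members the slow/slow sample was above the WT sample in 3 of 3 pairs, and for Hes1 in 2 of 3. The share of all tested genes with 3 of 3 pairs higher was not computed, so this count is a description only. Ratios ran from 21.4 to 26.0 for Hes5, from 2.85 to 6.67 for Dll1, from 2.35 to 6.26 for Dll3, from 1.20 to 4.10 for Jag1 and from 1.35 to 2.65 for Notch3. Among slow/slow samples, the ligands, Notch2, Hes3 and Hes5 were lowest in replicate 1, whereas Notch1, Notch3, Hes1 and Hey1 were highest there. Marker lists differed between genotypes and replicates too. Summed over 6 genes, neuronal markers were at 69.6, 95.9 and 83.5 CPM in WT and at 207, 432 and 520.3 CPM in slow/slow PSA-NCAM+ cells, with all 6 genes called higher. The 5 progenitor markers other than Hes5 summed to 708, 922 and 915 CPM in WT and to 1730, 1490 and 1524 CPM in slow/slow cells, again with all 5 called higher. Pluripotency markers summed to 1564, 1779 and 1295 CPM in WT and to 678, 705 and 699 CPM in slow/slow cells, with 3 of 5 called lower. Mural and smooth muscle markers reached 1439 CPM in slow/slow replicate 1, against 641 to 963 CPM in the others. The part of these differences in the changes of the Notch genes was not tested.

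**Figure D3:**
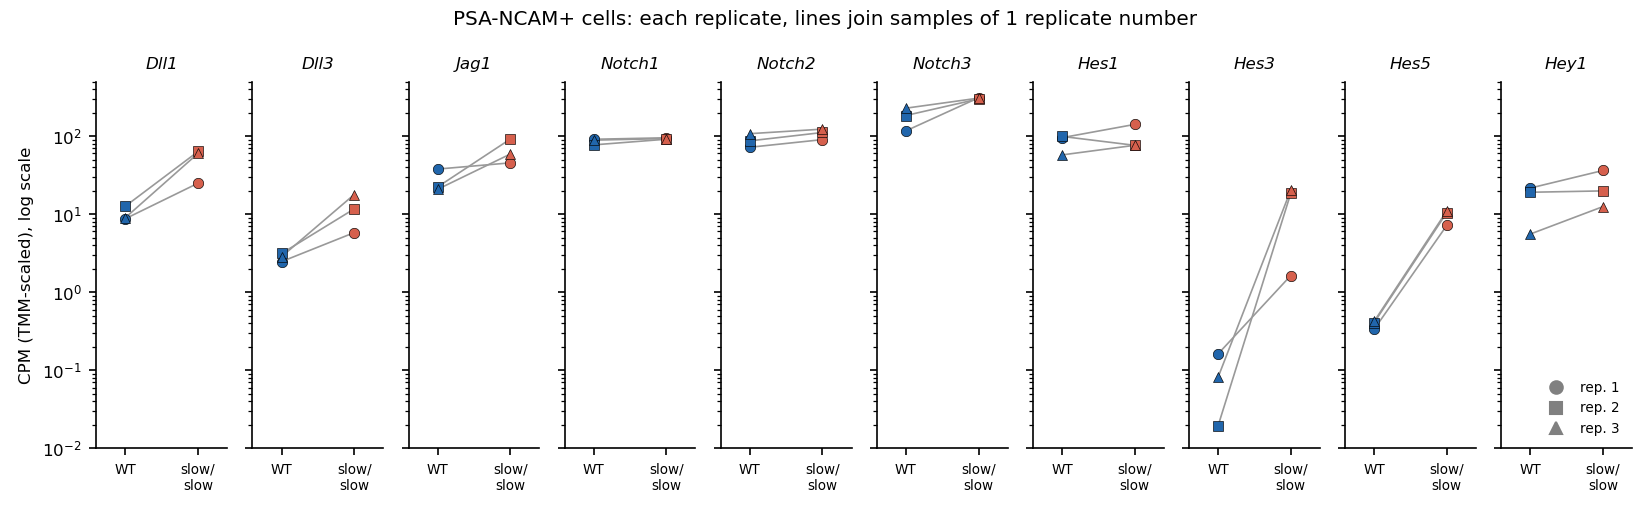
TMM-scaled CPM (log scale) of the 10 members in the 6 PSA-NCAM+ samples, WT in blue and slow/slow in red, with a symbol for each replicate number and a line joining samples of the same number. Lines rise in 3 of 3 pairs for all members but Hes1, a count not computed over all genes. The circle of replicate 1 is the lowest slow/slow point for Dll1, Dll3, Jag1, Notch2, Hes3 and Hes5.

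Along WT differentiation, the 3 ligands, Hes3, Hes5 and Hey1 had their highest mean levels in neurons, and Hes1 its lowest. From ESCs to NPCs 5 members were higher and 2 lower, against 34% and 31.6% of all tested genes. Dll1 rose 14.4 times (3.84 ± 0.28, FDR 3.21e-10), Notch2 by 1.43 ± 0.14 and Notch3 by 1.12 ± 0.16 on the log2 scale, and Hes1 fell by 1.08 ± 0.20 (FDR 1.6e-08, 3.07e-06 and 7.77e-05). Hes5 rose by 1.82 ± 0.45 (FDR 0.00134), from 4 to 6 counts per library in ESCs. Dll3 (0.67, FDR 0.021) was called higher and Jag1 (-0.61, FDR 0.0176) lower, but Dll3 was lost in 3 and Jag1 in 1 of the fits without 1 sample, the latter without WT NPC replicate 3. From NPCs to PSA-NCAM+ cells 3 members were higher and 2 lower, against 21.8% and 19.5% of all genes. Hey1 (2.16 ± 0.38), Jag1 (1.93 ± 0.22) and Hes1 (1.21 ± 0.20) rose, and Dll1 (-0.91 ± 0.23) and Dll3 (-0.90 ± 0.24) fell (FDR 1.68e-04, 1.59e-06, 8.35e-05, 0.00428 and 0.0062). Notch2 was lower with the replicate block (-0.28, FDR 0.0115) and did not pass the test without it (FDR 0.115).

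From NPCs to neurons, which were compared directly because neurons were replated from day 7 cultures, 7 members were higher and 2 lower in WT cells, against 41.4% and 38.9% of all genes. Hes5 was 38.8 times higher (5.28 ± 0.29, FDR 8.99e-13), Hes3 42.1 times (5.39 ± 0.71, FDR 6.26e-07) and Hey1 9.18 times (3.20 ± 0.39, FDR 2.36e-07). All 3 ligands rose, by 1.76 ± 0.23 for Dll1, 2.44 ± 0.24 for Dll3 and 2.76 ± 0.22 for Jag1 (FDR of at most 7.29e-07). Hes1 (-0.44 ± 0.20, FDR 0.0471) and Notch3 (-0.41 ± 0.15, FDR 0.0183) were lower, and Notch1 was higher (0.28 ± 0.08, FDR 0.00276). These last 3 were the weakest. Under upper-quartile scaling, which moved the median of all genes from 0.04 to -0.24 here, the change of Notch1 was 0.01, and Hes1 lost its call in 6 of 11 alternatives and Notch3 in 2, without WT NPC replicate 2 or WT neuron replicate 1. PSA-NCAM+ cells were not tested against neurons.

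In slow/slow cells the same steps gave 6 members higher and 2 lower from ESCs to NPCs (33.9% and 28.4% of all genes), 7 and 0 from NPCs to PSA-NCAM+ cells (22.5% and 19.8%), and 6 and 4 from NPCs to neurons (38.4% and 36.6%). Dll1 went from 0.738 ± 0.199 CPM (SD, n = 3) in ESCs to 43.9 ± 3.2 in NPCs and 139.7 ± 9.1 in neurons, and Hes5 from 1.18 ± 0.51 CPM in NPCs to 9.56 ± 2.07 in PSA-NCAM+ cells and 100.4 ± 17.8 in neurons. Notch1 fell by 0.44 ± 0.08 on the log2 scale into NPCs (FDR 6.79e-05), then was 0.79 ± 0.08 higher in PSA-NCAM+ cells (FDR 4.41e-07) and 1.90 ± 0.08 higher in neurons (FDR 4.54e-14) than in NPCs. Hes3 took a course of its own, with 5.94 ± 1.41 CPM in NPCs, 13.5 ± 10.3 at the PSA-NCAM+ stage and 1.87 ± 0.28 in neurons. Its fall from NPCs to neurons passed the test (-1.65 ± 0.54, FDR 0.00924), and its difference between NPCs and PSA-NCAM+ cells (1.19 ± 0.52, FDR 0.0711) passed without replicate 1 of both genotypes (1.73, FDR 6.04e-09). Dll3 was higher in PSA-NCAM+ cells than in NPCs (0.77, FDR 0.0132), but not without slow/slow replicate 3 (FDR 0.12). Notch3 was called lower in neurons than in NPCs (-0.35 ± 0.15, FDR 0.048), a call lost in 9 of 11 alternatives. Without replicate 1 of both genotypes all 10 members were called higher in PSA-NCAM+ cells than in NPCs. In this comparison that fit called 8777 of all genes in either direction, against 7033 in the main fit.

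Whether the genotype difference itself changed with stage was tested as an interaction. From ESCs to NPCs it changed for 3 members, against 24.6% of all genes. It rose for Dll1 and Notch3, by 2.01 ± 0.41 and 1.396 ± 0.22 on the log2 scale (FDR 0.00124 and 1.18e-04), and fell for Notch1 by 0.54 ± 0.11 (FDR 0.00138). From NPCs to PSA-NCAM+ cells it rose for 4 members, against 14.6% of all genes changed in either direction. Hes5 gained 3.00 ± 0.42 (FDR 1.39e-04), Dll3 1.67 ± 0.34 (FDR 0.00288) and Notch1 0.74 ± 0.11 (FDR 2.3e-04), and Dll1 gained 1.08 ± 0.33 (FDR 0.0301), which was lost in 8 fits without 1 sample. With the replicate block Notch2 (0.51, FDR 0.00522) and Notch3 (0.61, FDR 0.0135) passed as well. Hes3 did not pass in the main fit (1.50 ± 1.07, FDR 0.381). Without replicate 1 of both genotypes of PSA-NCAM+ cells Hes3 (2.89, FDR 0.00479) and Notch2 (0.48, FDR 0.0145) passed. These 2 fits called 5165 and 5200 of all genes in this comparison, against 2421 in the main fit. From NPCs to neurons 6 members changed, against 55.1% of all genes. Notch1 (1.62 ± 0.11), Hes5 (1.18 ± 0.38) and Dll3 (0.92 ± 0.33) rose, and Hes3 (-7.05 ± 0.89), Jag1 (-1.16 ± 0.30) and Notch2 (-0.54 ± 0.19) fell (FDR 8.48e-10, 0.0135, 0.0238, 1.95e-06, 0.00253 and 0.0197). Of these, Hes5 lost its call without WT NPC replicate 2 (FDR 0.0561), Dll3 without slow/slow neuron replicate 3 (FDR 0.0564), and Notch2 without replicate 3 of either genotype of neurons and under upper-quartile scaling (FDR up to 0.13), where 57.3% rather than 44.9% of all called genes rose.

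The authors' mean RPKM, which is per transcript length and has no error, allows levels to be set side by side between genes. Hes1 was the most abundant of the 4 repressors in WT cells at every stage, at 49.8 RPKM in ESCs and 26.6 in NPCs, with 62.2 at the PSA-NCAM+ stage and 18.8 in neurons. Its lead in neurons was small, with Hey1 at 14.7 and Hes5 at 11.7 RPKM. In slow/slow neurons Hes5 led at 89.8 RPKM, with Hes1 at 18.0 and Hey1 at 17.3. Among the member ligands in neurons, Dll1 led at 18.2 RPKM in WT and 43.3 in slow/slow cells. Dll3 followed at 11.04 and 30.3 and Jag1 at 8.58 and 14.9. Other listed ligands were not ranked. The leading member receptor was Notch3 at each stage in WT cells, from 9.24 RPKM in ESCs to 23.6 in PSA-NCAM+ cells. Slow/slow neurons held 23.3 RPKM of Notch1 and 22 of Notch3.

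**Figure D4:**
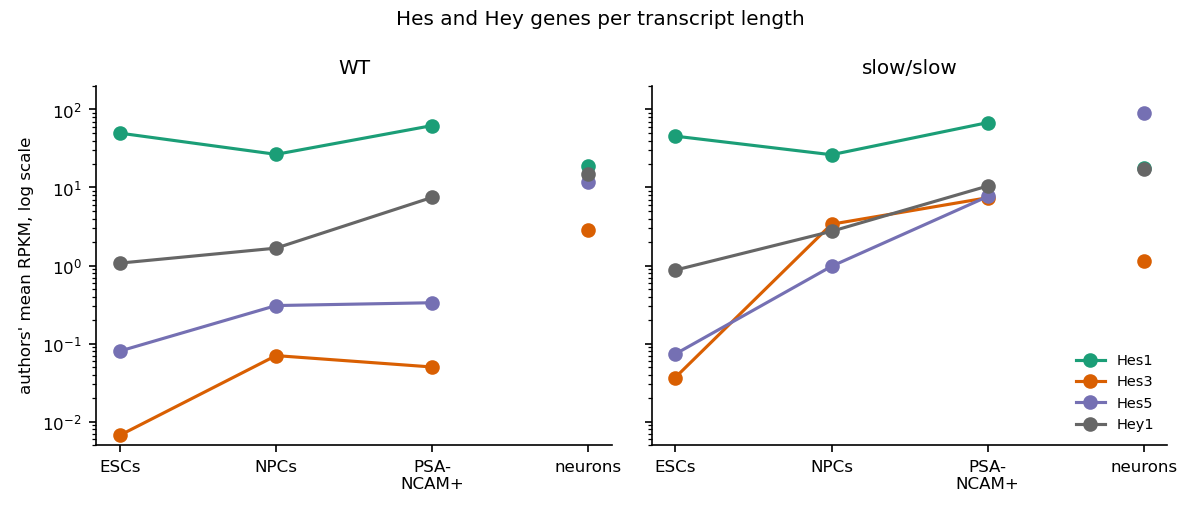
The authors' mean RPKM (log scale, no error available) of Hes1, Hes3, Hes5 and Hey1 in WT (left) and slow/slow cells (right). Lines join ESCs, NPCs and PSA-NCAM+ cells, and neurons stand alone because they came from day 7 cultures. Hes5 lies below Hes1 in WT neurons (11.7 and 18.8) and above it in slow/slow neurons (89.8 and 18.0).

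Beyond the members, 74 further genes of the pathway and its targets had been listed by role, of which 72 were tested. In slow/slow cells 7 were higher and 16 lower at the ESC stage. NPCs had 20 higher and 24 lower, PSA-NCAM+ cells 25 and 17, and neurons 30 and 17. The shares of all tested genes called higher and lower, given above, were 18.5% and 21.9% in ESCs, 29.3% and 27.4% for NPCs, 28.6% and 28.1% for PSA-NCAM+ cells, and 23.4% and 28.4% for neurons, and the counts of each list below are to be read against them. Without replicate 1 at the PSA-NCAM+ stage these counts were 16 and 19, 23 and 29, 29 and 23, and 33 and 21. That fit called 11391 of all genes in PSA-NCAM+ cells in either direction, against 9424. Its totals at the other stages are not given. The shares above come from the main fit and are no background for its counts, so their rise is not read as a result about these genes. In the main fit the medians of the log2 changes of the 72 genes were 0.01, -0.04, 0.11 and 0.08, beside -0.02, 0.01, -0.01 and -0.06 for all tested genes.

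The proneural genes, which Hes proteins repress, were called in 1 direction. Of 7 tested, 1 was higher in ESCs and 4 were in NPCs, PSA-NCAM+ cells had 6 and neurons all 7, and 0 were lower at any stage. In neurons Neurog1 went from 1.29 ± 0.33 CPM (SD, n = 3) in WT to 37.5 ± 7.7 in slow/slow cells (4.85 ± 0.45, FDR 3.33e-08), and Neurog2 from 2.97 ± 0.91 to 48.3 ± 7.7 CPM (4.02 ± 0.33, FDR 5.41e-09). Both encode factors that start neuronal differentiation and activate Delta-like ligands. Of the 12 genes of the Hes and Hey family, members included, 0 were higher and 1 lower in ESCs, and 3 and 3 in NPCs. PSA-NCAM+ cells had 4 higher and 0 lower, or 3 and 3 without replicate 1, and neurons 5 and 3. In neurons Heyl rose from 0.543 ± 0.241 to 27.2 ± 1.3 CPM (5.61 ± 1.01, FDR 1.05e-04), and Hes7 fell from 6.47 ± 1.54 to 0.63 ± 0.08 CPM (-3.37 ± 0.32, FDR 4.01e-08).

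Of 12 negative regulators of the pathway tested, 2 were higher and 3 lower in ESCs, 4 and 3 in NPCs, 6 and 1 at the PSA-NCAM+ stage, and 5 and 1 in neurons. Nrarp, a feedback inhibitor induced by Notch, was higher in PSA-NCAM+ cells (1.19 ± 0.27, FDR 7.84e-04) and went from 30.1 ± 2.1 to 133 ± 17 CPM in neurons (2.15 ± 0.27, FDR 1.75e-06). Dtx1 was lower at all 4 stages, with log2 changes of -1.15, -1.24, -1.4003 and -1.18. Lfng, a glycosyltransferase that changes which ligands a receptor answers to, was higher in ESCs (1.60 ± 0.18), NPCs (1.71 ± 0.15) and PSA-NCAM+ cells (2.33 ± 0.15, FDR 3.64e-10), where it went from 4.19 ± 0.38 to 21.1 ± 4.5 CPM, and less so in neurons (0.41 ± 0.14, FDR 0.0233). Of 10 receptor proteases, at most 3 were higher and 4 lower at a stage, and Psenen, a subunit of gamma-secretase, was lower in ESCs, NPCs and PSA-NCAM+ cells (-0.47 ± 0.10, -0.81 ± 0.11 and -0.64 ± 0.10). Rbpj, named after its values were seen because the receptors act through it, had lower values in slow/slow ESCs (-0.31 ± 0.08, FDR 0.00364) and PSA-NCAM+ cells (-0.59 ± 0.08, FDR 3.44e-06) and lowest relative to WT in NPCs, at 213.9 ± 12.99 against 438.8 ± 15.8 CPM (-1.04 ± 0.08, FDR 3.61e-09), and slightly higher in slow/slow neurons (0.30 ± 0.08, FDR 0.004).

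Among the 8 listed ligands, members included, 2 were higher and 2 lower in ESCs, 2 and 3 in NPCs, 3 and 2 at the PSA-NCAM+ stage, and 5 and 2 in neurons. Jag2, another Jagged ligand, named after its values were seen, was lower at all 4 stages, with log2 changes of -0.74 ± 0.09, -0.61 ± 0.09, -0.68 ± 0.09 and -0.43 ± 0.09 (FDR of at most 3.03e-04). In neurons Dll4 (2.07 ± 0.51, FDR 0.00217) and Dlk1 (2.43 ± 0.21, FDR 1.48e-08) were higher and Dner, a neuronal ligand-like protein, lower (-1.50 ± 0.22, FDR 1.4e-05). Notch4, the receptor best known from endothelium, was lower in NPCs and PSA-NCAM+ cells and higher in neurons, where WT cells had 4.44 ± 0.41 and slow/slow cells 11.1 ± 1.5 CPM (1.32 ± 0.14, FDR 1.41e-07). Endothelial markers, of which 6 were tested, had 0 higher and 2 lower in ESCs, 1 and 2 in NPCs, 0 and 3 at the PSA-NCAM+ stage, and 6 and 0 in neurons. Their sums were already 137 to 141.7 CPM in WT and 131.9 to 134.3 CPM in slow/slow ESCs. They were 84.9 to 91.9 CPM in WT and 26.6 to 35.8 CPM in slow/slow NPCs, and 61.5 to 67.5 CPM and 18.8 to 31.6 CPM in PSA-NCAM+ cells. In neurons they were at 11.4 to 14.3 CPM in WT and 110 to 139 CPM in slow/slow cells, with Cdh5 at 2.80 ± 0.55 and 70.5 ± 7.4 CPM (4.65 ± 0.34, FDR 1.55e-09). Neuronal markers summed to 3430 to 3740 CPM in WT and to 2739 to 2906 CPM in slow/slow neurons, with 4 of 6 called lower, and early mesoderm markers to 74.1 to 95.1 CPM and 7.82 to 8.95 CPM. Whether these differences in marker levels reflect cell makeup, and how far they take part in the changes of the Notch genes in neurons, was not tested.

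**Figure D5:**
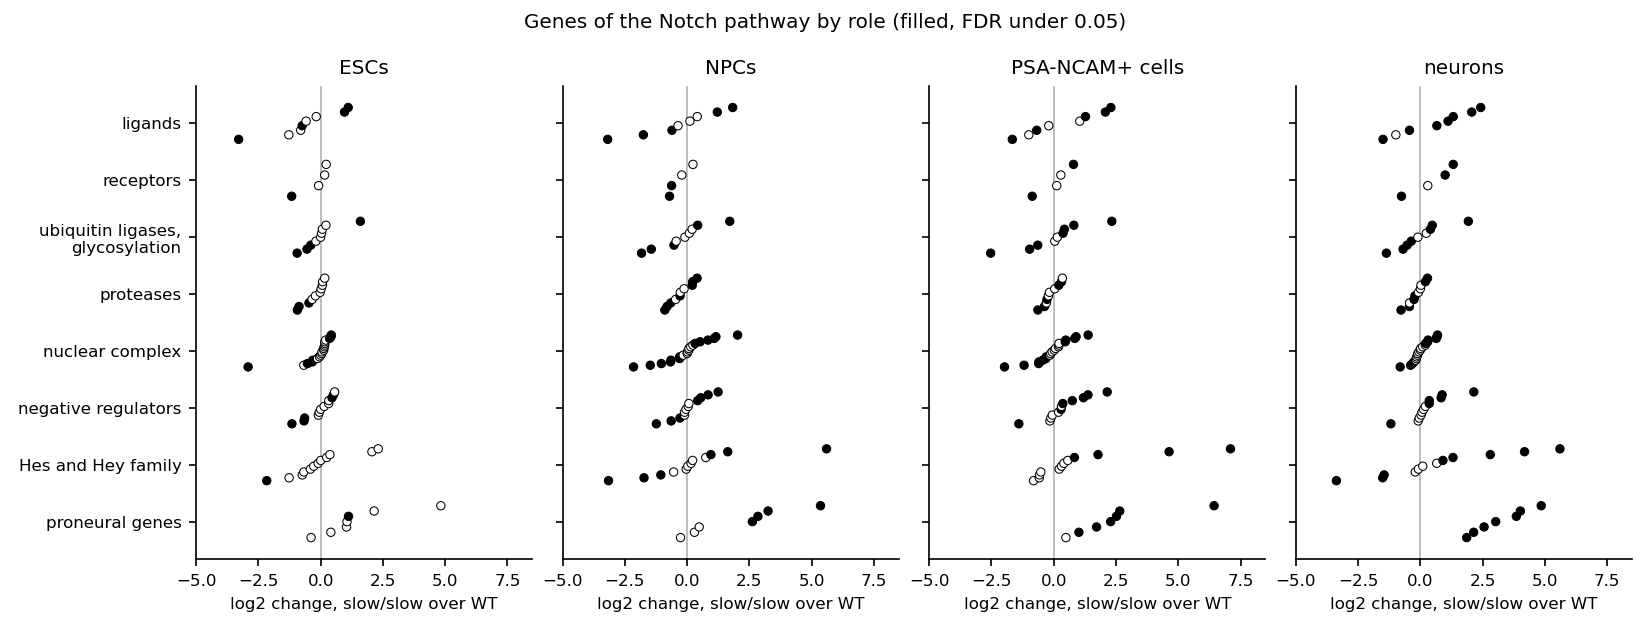
Log2 change of slow/slow over WT cells for the tested genes of each pathway list, members included, at the 4 stages. Each point is a gene, sorted within its list, and filled points have an FDR under 0.05. Proneural genes lie to the right of 0 from NPCs on where they are filled (4, 6 and 7 genes), while proteases stay within 1 log2 unit of 0.

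No exon of a member was past the rule used for exon inclusion. The rule asked for a difference of over 10 points in PSI, the percent of transcripts that include an exon, with no overlap between the 3 WT and the 3 slow/slow samples. For the members 40 exon events were listed, of which 34 in 6 genes (Notch1, Notch2, Notch3, Dll1, Dll3 and Jag1) passed the coverage filters at 1 or more stages. At the 4 stages 18, 28, 32 and 33 events passed and 0 were past the rule, where it took in 1.15%, 3.34%, 1.29% and 3.95% of all exon events. The largest difference was in an exon of Jag1 of 165 bases (chr2:136915501-136915665, mm9) in PSA-NCAM+ cells. Its PSI was 79.1, 88.4 and 97.9 in WT and 72.9, 61.5 and 86.0 in slow/slow samples, which overlapped. Without WT replicate 1 or without slow/slow replicate 3 this exon was past the rule. At the other stages no member exon differed by more than 5.75 points. With 3 samples against 3 an exact permutation test cannot go below 0.1, so no p-value is given.

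Other pathway genes, looked at after the lists had been drawn up, held 3 of 130, 10 of 143, 2 of 144 and 6 of 157 exon events past the rule at the 4 stages, where the shares of all exon events were 1.15%, 3.34%, 1.29% and 3.95%. Numb, which inhibits Notch in the daughter cell that inherits it, had a 147-base exon (chr12:85138147-85138293, mm9) with a PSI of 18.2, 22.0 and 25.7 in WT and 59.0, 51.5 and 54.2 in slow/slow NPCs. The same exon was at 18.1, 20.6 and 21.0 in WT and 32.2, 55.4 and 41.9 in slow/slow ESCs. Inclusion was thus higher at both stages, whereas in PSA-NCAM+ cells the groups overlapped (means of 15.97 and 29.3). A 160-base exon of Ctbp2, a corepressor gene (chr7:140217396-140217555, mm9), was included more in slow/slow cells at 3 stages, with means of 70.7 against 84.5 in ESCs, 75.6 against 86.0 in NPCs and 65.7 against 83.3 in neurons. In PSA-NCAM+ cells the samples did not overlap either, with means of 69.8 and 79.3 that differed by 9.48 points, just under the rule. At least 448 reads stood behind each of these values. For the Numb exon the lowest number was 34 reads.

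The genes whose levels over all 24 samples were most like those of a member were named by Pearson's correlation of log2(CPM + 1), as a description. Samples of a group share their stage and genotype, so they are not independent points. For Hes5 these were Ebf2 (0.99), Nhlh2 (0.99) and Filip1 (0.98), and Ebf2 and Nhlh2 encode transcription factors of young neurons. For Dll1 they were BC068157 (0.99), Pcbp4 (0.98) and Rgs12 (0.98), for Dll3 Bcl7a, Phf21b and Celsr2 (0.97 to 0.98), and for Jag1 Cnot6, Erbb2ip and Zfp280d (0.96 to 0.98). Hey1 was most like Dnajb4 (0.97), and Hes3 like Slc35b4, Irs4 and Kcnj3 (0.95). Hes1 was closest to Socs3, Sertad1 and Arid5b (0.93 to 0.94), Notch1 to Lhx2, Rrm2b and Foxc2, Notch2 to Frem2, Prtg and Bmp6, and Notch3 to Lrrfip1, Traf4 and Lrrc8c (0.92 to 0.95).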

How the data were processed

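Poly(A) RNA of 24 samples was sequenced as stranded 75-base read pairs. The authors deposited read counts per gene with their group mean RPKM, a unit read from the values since the header does not name it, and the percent of transcripts including each exon (PSI) from vast-tools on mm9. Whether counting used strand was not given in the sources used here. Deposited fold changes and FDRs of the authors' comparisons were not used. Counts of 16627 genes passing filterByExpr were fitted with edgeR 4.0.16 (R 4.3.3) in 1 model of 8 groups, with TMM scaling, quasi-likelihood tests, and Benjamini-Hochberg adjustment over all tested genes in each of 13 comparisons. SE is the log2 change divided by the square root of F. The procedure was run on simulated counts with the same relative spread in all genes and groups. It therefore does not show how the test performs at the more variable PSA-NCAM+ stage. Alternatives were DESeq2 1.42.0, other scalings, no filter, replicate blocks, stages fitted alone and samples left out. Members, lists and tests were chosen with earlier results of these data known. Other genes were named when called and among the 3 largest changes of their list in a comparison, or where a member's result turned on them, unless said otherwise. Lfng, Dtx1, Nrarp and Psenen are described at each stage where they were called. Replicate numbers were taken to pair samples only in PSA-NCAM+ cells, where deviations of same-numbered samples correlated at 0.54, 0.455 and 0.401, against at most 0.0677 between genotypes at other stages. The block for these samples was added after the data were seen. Exon PSI was compared by size and overlap, without a test, after the coverage filters of vast-tools. One listed gene is not reported here by name.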

Additional observations from a re-analysis of the deposited data

Results flagged for a closer look

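For 13 member results the difference between slow/slow and WT cells itself differed between stages, by the interaction test of edgeR (log2 scale, FDR under 0.05). Between ESCs and NPCs the difference moved by -0.54 for Notch1, 1.396 for Notch3 and 2.01 for Dll1. Between NPCs and PSA-NCAM+ cells it moved by 0.74 for Notch1, 1.08 for Dll1, 1.67 for Dll3 and 3.00 for Hes5. Between NPCs and neurons it moved by 1.62 for Notch1, -0.54 for Notch2, 0.92 for Dll3, -1.16 for Jag1, -7.05 for Hes3 and 1.18 for Hes5. Notch1 was the member for which it moved in all 3 comparisons. The comparisons share the NPC samples.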

How the results depend on the processing

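Of 130 member results, 80 were called, and no called value changed direction under any alternative run. The alternatives gave 768 values, of which 725 kept direction and call, 7 lost the call, 26 gained it and 10 changed sign. Fits without 1 sample gave 960 values, of which 893 kept both, 36 lost the call, 14 gained it and 17 changed sign. The cause of these changes was not tested. NPCs fitted alone called 9 members, against 5, and 11600 of all genes, against 9423. Over all genes, the PSA-NCAM+ stage fitted alone called 3641 genes between genotypes, against 9424, and the interaction of NPCs with PSA-NCAM+ cells called 2421 genes, but 5200 without replicate 1 and 5165 with the PSA-NCAM+ replicate block. The uncalled change of Hes1 between genotypes in NPCs (0.03) became -0.0062 with DESeq2 size factors, -0.0059 with the DESeq2 test and -0.0155 with upper-quartile scaling, which also gave -0.0161 for Hes5 between genotypes in ESCs, -0.0030 for Notch3 from WT NPCs to PSA-NCAM+ cells and 0.0886 for Dll1 in the interaction of NPCs with neurons. Without replicate 1 of both genotypes of PSA-NCAM+ cells, Hes1 went to -0.0355 between genotypes and to -0.0596 in the interaction with NPCs.

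With the replicate block, Hes5 between genotypes in ESCs was -0.0205, WT neurons against NPCs lost Hes1 (FDR 0.0555), and the interaction of ESCs with NPCs gained Hes5 (FDR 0.0262). Outside PSA-NCAM+ cells, WT and slow/slow samples of one number did not deviate together. Slow/slow NPCs and slow/slow PSA-NCAM+ cells of one number correlated weakly (0.238, 0.149 and 0.0939). With the PSA-NCAM+ replicate block, Notch3 from WT NPCs to PSA-NCAM+ cells was -0.0061, Notch2 from slow/slow NPCs to PSA-NCAM+ cells was called (0.22, FDR 0.0423), and apart from the calls of Notch2, Notch3 and Hey1 given above it changed no other call.

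Without 1 sample, values that changed sign ran from -0.623 to 0.26 for Hes5 between genotypes in ESCs, -0.0159 to 0.104 for Hes1 in NPCs and -0.116 to 0.409 for Hes1 in PSA-NCAM+ cells. From WT NPCs to PSA-NCAM+ cells they ran from -0.192 to 0.257 for Notch3, -1.16 to 0.075 for Hes3 and -0.0674 to 0.236 for Hes5, and in slow/slow cells from -0.0177 to 0.518 for Dll1. In the interactions with NPCs they ran from -0.15 to 0.373 for Hes1 and -0.652 to 0.148 for Hey1 in PSA-NCAM+ cells, and from -0.0278 to 0.162 for Notch3 in neurons. Member exons past the rule in PSA-NCAM+ cells numbered 0 to 1. Depth limited Hes3 and Hes5 in ESCs, at no more than 8 counts per library.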
